A study of Mus musculus with 18 samples.

Results

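Microtubule motors and the tubulins that build their tracks were followed in mouse embryonic stem cells (ESCs) and epiblast-like cells (EpiLCs). Members were all genes with a mouse symbol of Kif plus a digit, of the Dync, Dynl and Dnah families, of Dctn plus a digit, or of the Tuba, Tubb and Tubg families. The rule found 80 protein-coding genes among the 14411 genes present in either count table. Of these, 70 stood in both tables, 2 (Kif26b and Dnah17) only in the table of ESCs, and 8 (Kif17, Kif19a, Kif27, Dnah1, Dnah7a, Dnah7c, Dnah11 and Dnah14) only in that of EpiLCs. The members comprised 34 kinesins, 14 subunits of cytoplasmic dynein, 10 axonemal dynein heavy chains, 6 dynactin subunits, 6 alpha-tubulins, 7 beta-tubulins and 2 gamma-tubulins. The remaining member, Kif1bp, met the rule by its symbol and encodes a kinesin-binding protein that is not a motor. A pseudogene, Dynlt1-ps1, also met the rule and was kept apart. Another 14 coding genes of the annotation that fit the rule were in neither table, among them the platelet beta-tubulin Tubb1, the dynein intermediate chain Dync1i1 and the axonemal heavy chains Dnah5 and Dnah9.

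The 12 libraries were made from female ESCs of a single clone that carry the Blimp1::mVenus and Stella::ECFP reporters, and from EpiLCs induced from them. Each cell type had 3 libraries, labelled as biological replicates, with the ethanol vehicle and 3 with 100 nM Δ9-tetrahydrocannabinol (Δ9-THC), the main psychoactive compound of cannabis. ESCs were exposed during their own culture, and EpiLCs both as ESCs and during their induction. The question put to the members was whether their RNA differed with exposure within each cell type, and how their levels stood in the naive and the formative state.

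Microtubules are hollow polymers of alpha- and beta-tubulin pairs, and gamma-tubulin nucleates them at the centrosome. Kinesins mostly walk towards the plus end, where tubulin is added, and they carry cargo, slide spindle microtubules or take microtubules apart. Cytoplasmic dynein walks towards the minus end together with dynactin, while axonemal dyneins bend motile cilia and flagella. Pluripotent stem cells divide rapidly, so that spindle motors are in constant use, whereas several tubulin isotypes and cargo motors are best known from neurons.

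The adjusted counts per library totalled 23427551 to 32096698. Levels are given as counts per 1000000 counts (CPM), scaled by the trimmed mean of M-values (TMM) over the 12 libraries, and as CPM per kilobase of exon where genes are compared with one another. Members together took 0.847% to 0.962% of the counts of a library, and alpha- and beta-tubulins took 50.9% to 57.9% of that share. All 10 markers of naive pluripotency were measured in ESCs, where they summed to 4447 to 4886 CPM against 322 to 377 CPM in EpiLCs. The 8 markers of the formative state summed to 1746 to 2112 CPM in EpiLCs, and the 5 of them measured in ESCs (Fgf5, Wnt8a and Fgf15 were not in that table) summed to 149 to 169 CPM. Of 5 neural markers, Neurog2 and Dcx were in neither table, Pax6 was not in that of ESCs, and the rest summed to 17.2 to 28.3 CPM. Of 5 fibroblast markers, Col3a1 and Postn were in neither table, and the others summed to at most 15.5 CPM, while 1 of 5 markers of primitive endoderm was measured, at up to 3.41 CPM. The most abundant identifier without a gene name took 2.46% to 3.19% of the counts in exposed ESCs and 0.477% to 0.639% in their vehicle controls. In EpiLCs the exposures overlapped, at 0.779%, 2.19% and 3.88% with vehicle and 3.97%, 1.79% and 0.418% with Δ9-THC. Mitochondrially encoded genes took 5.42% to 5.7% in 3 EpiLC libraries (vehicle 3, Δ9-THC 1 and Δ9-THC 2) and 2.64% to 3.12% in the other 3. Their part in the results was not tested. In bulk RNA, fewer cells of a kind and less RNA per cell cannot be told apart.

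Mitotic kinesins gave most of the kinesin RNA in both cell types. The 11 genes of this list summed to 1512 ± 34 CPM (SD, n = 3) in vehicle ESCs and 1198 ± 79.4 CPM in vehicle EpiLCs. The kinesin with the highest level per kilobase was Kif20a, which acts in cytokinesis, in ESCs, with 38 ± 0.583 CPM per kilobase. It was Kif2c, which depolymerizes microtubules at kinetochores, in EpiLCs, with 31.6 ± 1.54 CPM per kilobase, though the chromokinesin Kif22 at 30.5 ± 2.32 lay within its spread. Kif2c stood at 33.4 ± 0.873 CPM per kilobase in ESCs, close below Kif20a and next to the spindle-sliding motor Kif11 at 33.1 ± 0.677, from which it did not differ beyond the spread between libraries. Of the exons of Kif20a, 29.3% overlap another gene, and reads in such stretches could not be assigned.

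The promoters of the mitotic kinesins held a sequence feature in common that the membership rule did not use. The motif searched was TTTGAA, the letters of the cell cycle genes homology region, on both strands, in windows of 250 bases before to 50 bases after the annotated start (RefSeq, GRCm38.p6). It was present in 9 of the 10 mitotic kinesins with an entry, and in 17.9% of the 32851 entries of all genes. It began within 20 bases of the start in 7 of these 10 (Kif4, Kif11, Kif15, Kif18b, Kif20b, Kif22 and Kif23) and in 2.17% of all entries. It began near the start in none of the 9 cargo kinesins and 12 tubulins with entries, and among all 63 members with an entry only Kif26b was added. A match describes these letters and shows neither a working site nor a factor bound there. The stretches from 70 bases before to 50 bases after the start are shown for 5 of the 7 and for Kif18a, the mitotic kinesin without a match, with every match in capitals (TTTGAA, or TTCAAA where it lies on the other strand).
Kif4, chrX:100625995-100626114, plus strand: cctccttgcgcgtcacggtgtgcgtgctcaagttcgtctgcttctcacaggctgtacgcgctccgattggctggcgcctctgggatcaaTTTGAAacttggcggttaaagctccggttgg
Kif11, chr19:37376312-37376431, plus strand: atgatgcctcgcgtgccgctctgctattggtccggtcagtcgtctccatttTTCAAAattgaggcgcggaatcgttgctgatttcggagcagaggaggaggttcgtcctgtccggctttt
Kif15, chr9:122951011-122951130, plus strand: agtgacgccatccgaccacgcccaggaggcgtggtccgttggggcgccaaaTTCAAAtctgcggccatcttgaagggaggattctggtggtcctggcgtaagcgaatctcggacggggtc
Kif22, chr7:127042371-127042490, minus strand: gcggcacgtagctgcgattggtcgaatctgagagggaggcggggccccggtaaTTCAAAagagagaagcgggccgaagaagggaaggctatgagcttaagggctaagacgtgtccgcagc
Kif23, chr9:61946750-61946869, minus strand: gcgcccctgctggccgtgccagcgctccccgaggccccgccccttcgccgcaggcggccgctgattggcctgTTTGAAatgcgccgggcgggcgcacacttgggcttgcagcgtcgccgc
Kif18a, chr2:109280668-109280787, plus strand: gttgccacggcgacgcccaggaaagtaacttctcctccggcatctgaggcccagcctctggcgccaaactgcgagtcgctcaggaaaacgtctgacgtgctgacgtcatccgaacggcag

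Cargo kinesins had fewer reads. The 13 genes of this list, which holds Kif3b while its partner Kif3a is in the ciliary list, summed to 699.8 ± 7.85 CPM in vehicle ESCs and 659 ± 10.6 CPM in vehicle EpiLCs, of which Kif5b, the ubiquitous heavy chain of conventional kinesin, gave 239 ± 5.39 and 189.9 ± 11.2 CPM. The ciliary kinesins were low, at 66.7 ± 1.13 CPM in ESCs over 4 measured genes and 86.1 ± 6.58 CPM in EpiLCs over 7. Most of this came from Kif24 and from Kif3a, a subunit of the motor of intraflagellar transport, which had 24.4 ± 1.8 CPM in ESCs and 38.1 ± 8.13 CPM in EpiLCs.

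Among tubulins, Tubb5 stood far above the rest, with 784 ± 10.6 CPM per kilobase in vehicle ESCs and 832 ± 32.7 in vehicle EpiLCs. It encodes the general beta-tubulin of dividing cells, and only 0.115% of the 50-base stretches of its longest transcript occur in another gene. The leading alpha-tubulin was Tuba1b, with 261 ± 10.6 and 367 ± 21.7 CPM per kilobase. It was followed in ESCs by Tuba1c at 154 ± 2.47 and Tuba1a at 84.7 ± 8.13, and in EpiLCs by Tuba1a at 249 ± 13.2 and Tuba1c at 115 ± 10.1, so that the order of these genes differed between the cell types. The beta-tubulin Tubb4b had 256 ± 13.8 and 303 ± 21.2 CPM per kilobase. Gamma-tubulin was nearly all Tubg1, with 30.7 ± 1.36 and 35 ± 1.74 CPM per kilobase against 1.07 ± 0.077 and 1.8 ± 0.403 for Tubg2. The authors kept reads that map to a single place, and several isotypes share long stretches. Of the 50-base stretches of Tuba1b, 83.1% occur in other genes, as do 75.5% of Tuba1a, 61% of Tuba1c and 55.5% of Tubb4b. Of the exons of Tuba1b and Tuba1a, 27.4% and 26.2% overlap another gene, against 0% for Tuba1c. Shared and overlapping stretches make the levels of these isotypes against one another uncertain.

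The dynein light chains led their family, with Dynlrb1 highest in ESCs at 60.7 ± 5.72 CPM per kilobase and Dynll1 in EpiLCs at 86.8 ± 10.6, where Dynlrb1 stood at 75.8 ± 7.69 and overlapped it within their spread. Both are small subunits that join the motor into a dimer and link it to other proteins. The heavy chain Dync1h1, the ATPase of the motor, had 40.6 ± 1.97 CPM per kilobase in ESCs and 25.1 ± 2.5 in EpiLCs. Dynactin was led by Dctn2 in ESCs (28.4 ± 1.11 CPM per kilobase) and Dctn3 in EpiLCs (27.5 ± 1.2). The 4 light chain copies Dynlt1a, Dynlt1b, Dynlt1c and Dynlt1f share 77.4% to 95.2% of their 50-base stretches with other genes, and their single values are uncertain. Axonemal heavy chains were scarce apart from Dnah8, which had 4.75 ± 0.154 CPM per kilobase in ESCs.

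**Figure D1:**
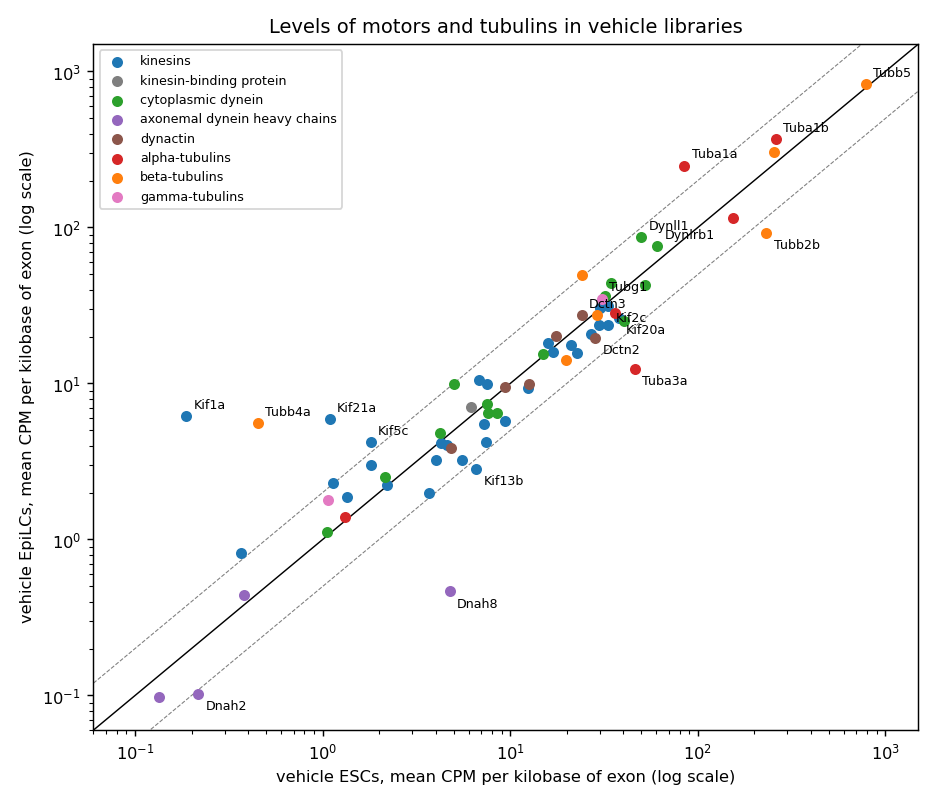
Mean level of the 70 members present in both tables in the 3 vehicle ESC libraries (x axis) and the 3 vehicle EpiLC libraries (y axis), in CPM per kilobase of exon on log scales, each point a gene coloured by family. The solid line marks equal levels and the dashed lines 2-fold differences. Most members lie between the dashed lines, Tubb5 is at the top of both axes, Kif1a and Tubb4a lie far above the lines and Dnah8 far below.

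The members as a whole were not shifted between the cell types, whereas several isotypes and cargo motors lay far apart. The tables were adjusted separately by the authors, so these differences are described and not tested. The median log2 ratio of EpiLC to ESC level in vehicle libraries was 0.005 over the 70 members and 0.002 over all 12410 shared genes. With no overlap between the 3 libraries of each type, 8 members were more than 2-fold higher in EpiLCs (background 11.1% of shared genes) and 5 were more than 2-fold lower (background 10.5%). These shares, 11.4% and 7.14%, were near or below the background. With Δ9-THC libraries in place of the vehicle ones, 9 members were higher (background 11.5%) and 3 were lower (background 9.3%).

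Cargo kinesins did not move together between the cell types. Over the 13 genes the median log2 ratio was -0.050 in vehicle and 0.11 in Δ9-THC, with 6 above and 7 below 0 in vehicle, and 3 were more than 2-fold higher in EpiLCs and 1 more than 2-fold lower. The neuronal motor Kif5a, for one, had 15.5 ± 1.03 CPM in vehicle ESCs and 15.8 ± 1.19 CPM in vehicle EpiLCs, and Kif1b and Kif21b had log2 ratios of -0.18 and -0.050. Kif1a, which carries synaptic vesicle precursors along axons, had 1.9, 1.5 and 1.84 CPM in vehicle ESCs and 55, 61.3 and 56.1 CPM in vehicle EpiLCs. The exposed cells had 0.959, 1.33 and 1.08 CPM as ESCs and 75.8, 67.4 and 73.3 CPM as EpiLCs. Every EpiLC library was thus far above every ESC library, and the ratio was 32.9-fold in vehicle and 64.2-fold in Δ9-THC.

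Kif21a, a kinesin that restrains microtubule growth at the cell cortex, had 8.06, 6.59 and 6.53 CPM in vehicle ESCs, 5.21, 6.63 and 6.72 in exposed ESCs, 42.6, 36.8 and 36.1 in vehicle EpiLCs and 40.8, 47.6 and 47.2 in exposed EpiLCs. Kif5c, the neuronal heavy chain of conventional kinesin, had 12, 14.4 and 12.3 CPM in vehicle ESCs, 12.6, 10.3 and 12.3 in exposed ESCs, 30.8, 30.5 and 29 in vehicle EpiLCs and 33.7, 34.2 and 35.3 in exposed EpiLCs. The cell types did not overlap for either gene, with vehicle log2 ratios of 2.45 and 1.22. Kif13b, a motor of membrane cargo, went the other way, with 89.8, 82.6 and 85.4 CPM in vehicle ESCs, 80.3, 87.3 and 84.5 in exposed ESCs, 35.7, 41.3 and 33.5 in vehicle EpiLCs and 44.5, 37.4 and 46.3 in exposed EpiLCs. Its log2 ratio was -1.22 in vehicle and -0.98 in Δ9-THC.

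Tubulin isotypes differed in both directions, whereas the neuronal beta-tubulin Tubb3 had a log2 ratio of -0.077. Tuba1a, an alpha-tubulin best known from developing neurons, had 136, 161 and 161 CPM in vehicle ESCs, 152, 128 and 128 in exposed ESCs, 421, 462 and 463 in vehicle EpiLCs and 439, 400.1 and 395 in exposed EpiLCs. Tubb4a, a beta-tubulin of brain, had 0.981, 0.842 and 1.21 CPM in vehicle ESCs, 0.834, 0.933 and 0.581 in exposed ESCs, 14.2, 10.7 and 12.2 in vehicle EpiLCs and 10.8, 14.2 and 12.6 in exposed EpiLCs. Both were higher in every EpiLC library, by 2.94-fold and 12.3-fold in vehicle, and the ESC values of Tubb4a rest on about 29.7 counts per vehicle library.

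Tubb2b and Tuba3a were lower in EpiLCs. Tubb2b, a beta-tubulin of neural progenitors, had 504, 542 and 553 CPM in vehicle ESCs, 530.3, 493 and 482 in exposed ESCs, 196, 227 and 215 in vehicle EpiLCs and 196, 167 and 177 in exposed EpiLCs. Tuba3a, whose protein is best known from testis, had 69.7, 67.9 and 71.5 CPM in vehicle ESCs, 69.9, 71.8 and 68.2 in exposed ESCs, 18.1, 16.8 and 21.3 in vehicle EpiLCs and 17.7, 19.1 and 14.8 in exposed EpiLCs. ESCs held 2.51-fold and 3.72-fold the vehicle EpiLC level, with no overlap. Summed over the family, beta-tubulins were at 3822 ± 91.9 CPM in vehicle ESCs and 3822 ± 174 CPM in vehicle EpiLCs, so that the totals differed by less than the spread between libraries while single isotypes differed. Alpha-tubulins summed to 1200 ± 41.7 CPM in vehicle ESCs and 1527 ± 18.9 CPM in vehicle EpiLCs.

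The axonemal heavy chain Dnah8, best known from sperm flagella, was the member furthest below in EpiLCs. It had 130.1, 129 and 123 CPM in vehicle ESCs, 123, 123 and 129.7 in exposed ESCs, 11.8, 12.5 and 13 in vehicle EpiLCs and 14.4, 13.7 and 12.9 in exposed EpiLCs. Its ESC level was 10.2-fold that of EpiLCs in vehicle, and it made up nearly all of the 141 ± 4.04 CPM of the 5 axonemal heavy chains measured in ESCs. Dnah2, another heavy chain of motile cilia, had only 2.85, 3.37 and 3.51 CPM in vehicle ESCs, 3.59, 3.03 and 2.82 in exposed ESCs, 1.39, 1.61 and 1.6 in vehicle EpiLCs and 2.01, 1.75 and 1.72 in exposed EpiLCs. It lay more than 2-fold apart in vehicle and not in Δ9-THC, with log2 ratios of -1.08 and -0.79.

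**Figure D2:**
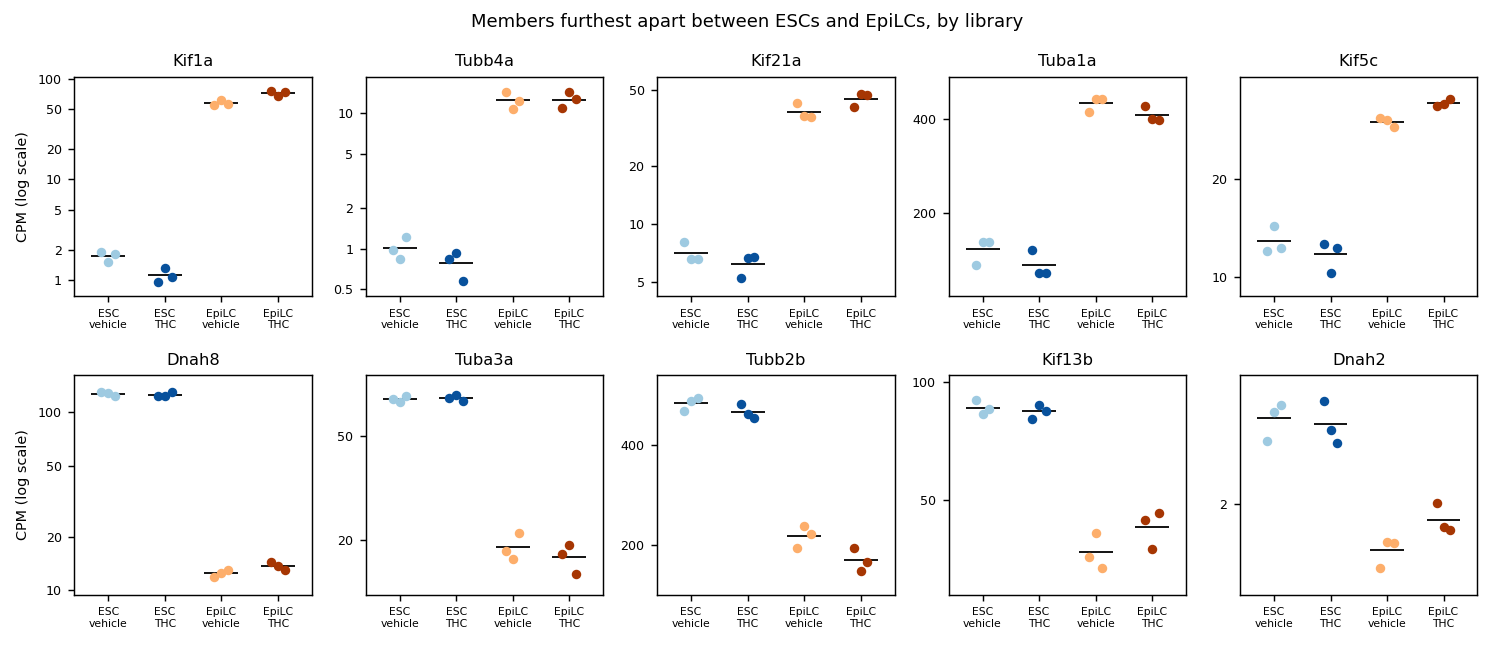
CPM (log scale) in each of the 12 libraries for the 5 members with the largest and the 5 with the smallest ratio of EpiLC to ESC level in vehicle, among members with a mean of at least 50 counts in either cell type. Points are libraries and lines are group means of 3. In each panel the 6 ESC libraries are separate from the 6 EpiLC libraries.

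Mitotic kinesins differed little but mostly in the same direction. Of the 11 genes, 10 had a lower mean in vehicle EpiLCs than in vehicle ESCs, the exception being the chromokinesin Kif22, and the median log2 ratio was -0.40 in vehicle and in Δ9-THC. The range ran from -0.81 for Kif14, a motor of the midbody, to 0.021 for Kif22, and none was more than 2-fold apart. Dynein light chains had a median log2 ratio of 0.27, with 6 of 8 higher in EpiLCs. The 6 include the similar copies Dynlt1a, Dynlt1b, Dynlt1c and Dynlt1f, whose single values are uncertain. The other light chains went both ways: Dynll1 (0.80) and Dynlrb1 (0.32) were higher, and Dynll2 (-0.30) and Dynlt3 (-0.39) lower. For the 4 measured subunits of dynein-1, the general cytoplasmic motor, the median was -0.096. The median for mitotic kinesins was -0.39 when libraries were scaled by relative log expression (RLE) in place of TMM.

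In ESCs, exposure to Δ9-THC left nearly all members without a call. With Benjamini-Hochberg adjustment over all genes of the table, edgeR's quasi-likelihood test found that 1 of 72 members was higher (background 3.37% of 13104 genes) and 2 were lower (background 3.55%). The share of members called was 4.17% against 6.91% of all genes, so members were not called more often than other genes. At an unadjusted p under 0.05, 9 members were higher (background 14.9%) and 11 were lower (background 13.8%), in all 27.8% of members against 28.7% of genes. The 3 exposed libraries were all above the 3 vehicle libraries for 7 members (background 14.2%) and all below for 15 (background 18.8%).

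Tubb2a, a beta-tubulin abundant in neurons, was lower with Δ9-THC. It had 31.9, 31.2 and 33 CPM in vehicle ESCs and 26, 26.6 and 25.2 CPM in exposed ESCs, with no overlap. Its log2(fold-change) was -0.29 ± 0.040 (SE), with an adjusted p of 0.0283 by edgeR's quasi-likelihood test, and 49.6% of its 50-base stretches occur in other genes.

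Dctn1, the large dynactin subunit that binds both dynein and the microtubule, was also lower. It had 80.2, 83.8 and 82.6 CPM in vehicle ESCs and 73.9, 70.6 and 71.6 CPM in exposed ESCs, and the groups did not overlap. The log2(fold-change) was -0.17 ± 0.033, with an adjusted p of 0.038 by edgeR's quasi-likelihood test.

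Kif18a, a kinesin that dampens chromosome movement at the metaphase plate, was the member called higher. It had 73.8, 70.4 and 69.5 CPM in vehicle ESCs and 78, 81.7 and 82.6 CPM in exposed ESCs, again with no overlap. The log2(fold-change) was 0.20 ± 0.038, with an adjusted p of 0.0393 by edgeR's quasi-likelihood test. The next member by p was Kif3b, a subunit of the heterotrimeric kinesin of intraflagellar transport, with 31.7, 31.3 and 30.5 CPM in vehicle and 27.4, 27.8 and 28.5 CPM in exposed ESCs. The groups did not overlap, and the log2(fold-change) was -0.14 ± 0.036 with an adjusted p of 0.0617 by edgeR.

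DESeq2, which gave an adjusted p to 63 of the members, made the same 3 calls, with adjusted p of 0.00999 for Tubb2a, 0.0348 for Dctn1 and 0.0254 for Kif18a (background 4.52% higher and 3.16% lower, 7.68% in all, of 9801 genes). All 3 calls were lost when any of the 6 libraries was left out (adjusted p by edgeR 0.0721 to 0.141). These fits are not 6 separate checks, since leaving out either library of a same-numbered pair gave similar values. For Tubb2a the adjusted p by edgeR was 0.0721 without Δ9-THC replicate 1 and 0.0734 without vehicle replicate 1. Without Δ9-THC replicate 1, the 3 members had the same adjusted p of 0.0721, as did Mapre3 and Tbce, which are described below. The share of all genes called in these fits is not given here. The calls were lost as well with the replicate block (0.414 to 0.429), where the SE was larger (0.090 against 0.040 for Tubb2a). The log2(fold-change) stayed at -0.31 to -0.27 for Tubb2a, -0.19 to -0.16 for Dctn1 and 0.18 to 0.23 for Kif18a in all these fits. The 3 calls were also lost with offsets that remove each library's trend with GC content and gene length (0.0815 for Tubb2a, 0.701 for Dctn1 and 0.69 for Kif18a), where the log2(fold-change) became -0.23, -0.033 and 0.033. The edgeR p-values treat the libraries as independent, whereas same-numbered vehicle and exposed libraries deviated from their group means in opposite directions (correlations of -0.987 to -0.977 over genes in ESCs and -0.985 to -0.979 in EpiLCs), and the part of this in the p-values was not tested. Over all alternatives the adjusted p ran from 0.00999 to 0.91 for Tubb2a, 0.0348 to 0.969 for Dctn1 and 0.0254 to 0.969 for Kif18a. Across all 13083 genes with a GC content, Spearman's rho of the log2(fold-change) with GC content was -0.536 in ESCs, a description over genes of the same 6 libraries, and the GC contents of Tubb2a, Dctn1 and Kif18a are 55.2%, 58.8% and 38.2%.

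By family, the ESC fold changes were small. The median log2(fold-change) was -0.022 over the 72 members and 0.004 over all genes tested. Tubulins lay mostly below 0 (14 of 15, median -0.082), all 7 beta-tubulins included (median -0.16, and -0.058 with the GC and length offsets), yet Tubb2a was the only tubulin called. Tubulins are rich in GC, with a median of 55.8% over the 15 genes against 49.8% over all genes, and with the GC and length offsets their median was -0.022 and that of the alpha-tubulins changed sign, from -0.059 to 0.001. Of the 31 kinesins measured in ESCs, 14 lay above 0 and 17 below (median -0.016, and -0.031 to -0.003 with any library left out). The mitotic list had a median of 0.067, with 7 of 11 above 0, and -0.001 with the offsets. Cargo kinesins had a median of -0.12, with 8 of 13 below 0, and -0.050 with the offsets. It was -0.062 and -0.041 without vehicle replicate 1 or 2, and -0.069 and -0.043 without Δ9-THC replicate 1 or 2. Cytoplasmic dynein (median 0.008), axonemal heavy chains (-0.008) and dynactin (0.028) lay near 0, and each of these signs turned with the offsets (-0.011, 0.011 and -0.010). The first 2 also turned with a library left out, any of the 6 for axonemal heavy chains and replicate 1 or 2 of either group for cytoplasmic dynein.

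**Figure D3:**
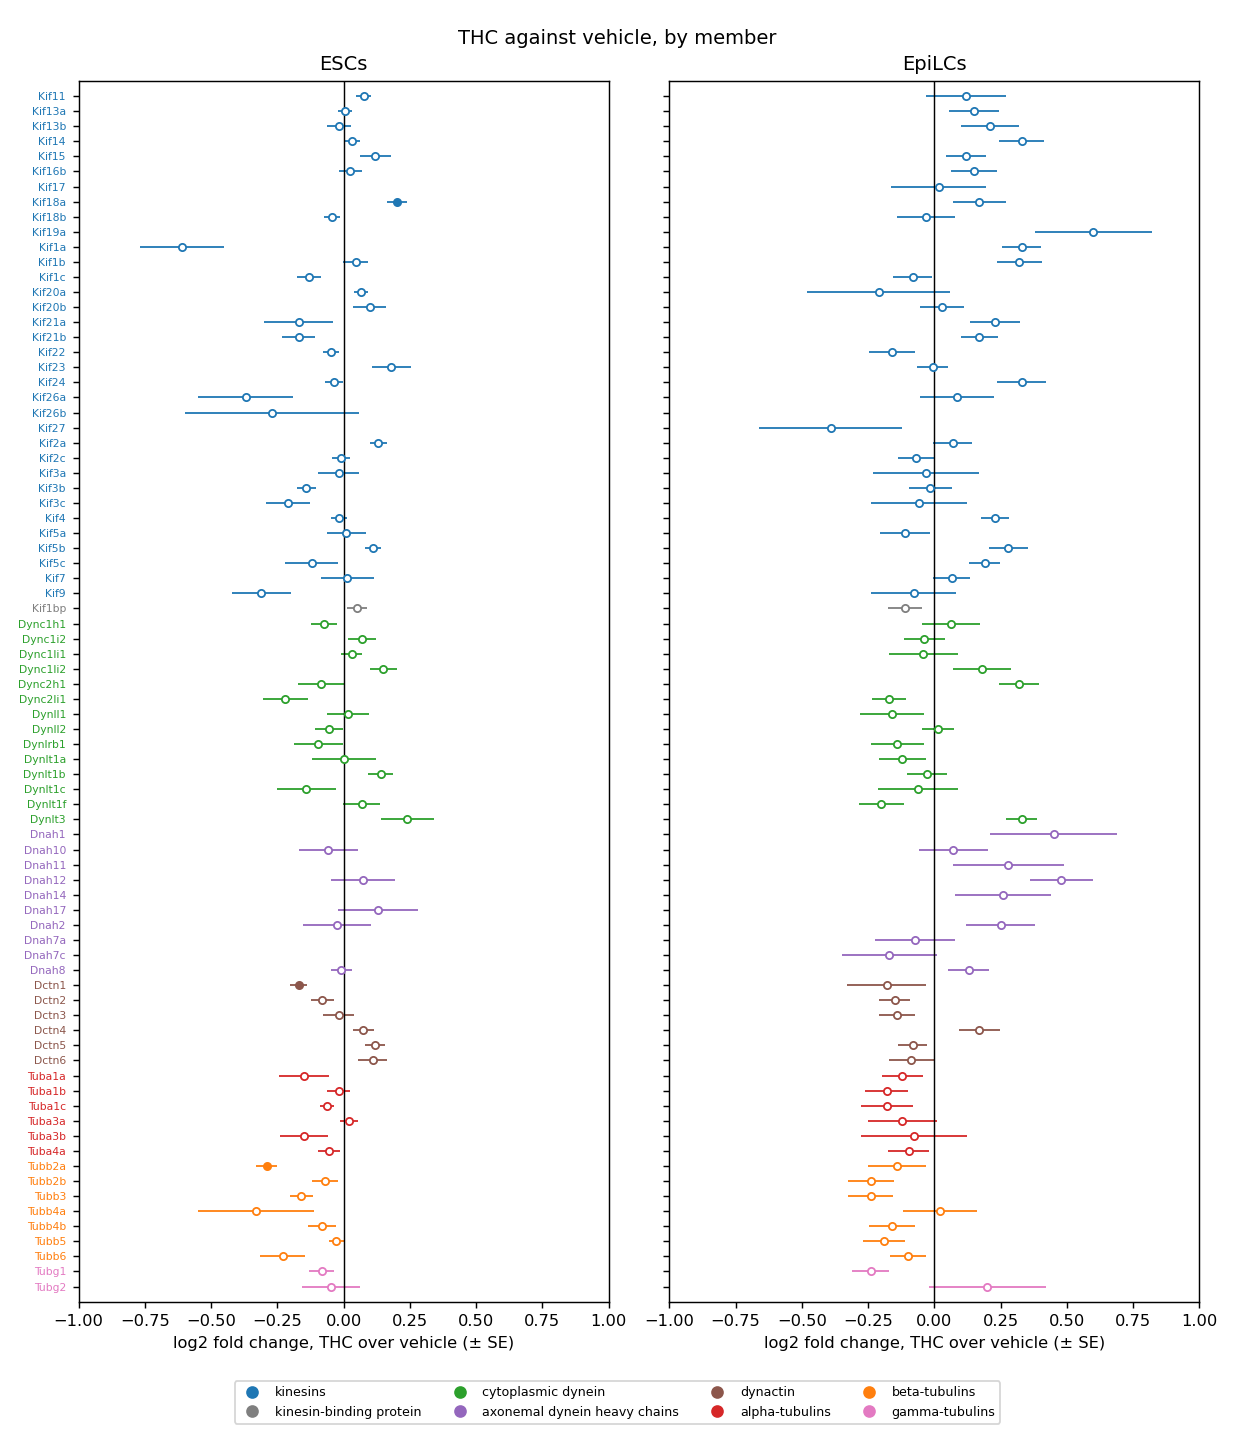
Log2(fold-change) of Δ9-THC over vehicle for each of the 80 members in ESCs (left) and EpiLCs (right), with SE bars from edgeR and 3 libraries per group, coloured by family. Filled points passed an adjusted p of 0.05 and open points did not. Tubb2a, Dctn1 and Kif18a are filled in ESCs, and no point is filled in EpiLCs.

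In EpiLCs, no member passed the threshold in edgeR's test of the 6 EpiLC libraries, and no other gene did. After Benjamini-Hochberg adjustment, edgeR's quasi-likelihood test called 0 of 78 members (background 0% of 13717 genes), and DESeq2 also called 0 of 78 (background 0.372% higher and 0.146% lower, 0.518% in all). At an unadjusted p under 0.05 in edgeR, 13 members were higher (16.7%, background 8.28%) and 5 were lower (6.41%, background 6.8%). The exposed libraries were all above the vehicle libraries for 14 members (background 11.2%) and all below for 10 (background 10.6%).

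The 4 members with the smallest p all had higher values with Δ9-THC. Dynlt3, a light chain that links dynein to cargo, had 16.4, 16.7 and 16.8 CPM in vehicle EpiLCs and 21.3, 21.1 and 20.6 CPM in exposed EpiLCs, with a log2(fold-change) of 0.33 ± 0.059 and an adjusted p of 0.144 by edgeR. In ESCs the groups overlapped, at 24.5, 21 and 19.9 CPM in vehicle and 22.4, 26.4 and 27.5 CPM in exposed cells. Dync2h1, the heavy chain of the dynein-2 motor of cilia, had 18.6, 18.9 and 16.9 CPM in vehicle EpiLCs and 22.2, 21.9 and 23.9 CPM in exposed EpiLCs, a log2(fold-change) of 0.32 ± 0.075 with an adjusted p of 0.174 by edgeR. It had 18, 18.3 and 15.6 CPM in vehicle ESCs and 15.5, 15.3 and 17.8 CPM in exposed ESCs, where the groups overlapped.

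Kif4, a chromokinesin that shortens the overlap of spindle microtubules, had 84.8, 85.9 and 87.9 CPM in vehicle EpiLCs and 103, 102 and 98.2 CPM in exposed EpiLCs. Its log2(fold-change) was 0.23 ± 0.053, with an adjusted p of 0.172 by edgeR. Vehicle ESCs had 127, 126 and 122 CPM and exposed ESCs 120.0, 121 and 125 CPM, so that the groups overlapped there. Kif1a, with the EpiLC values given above, had a log2(fold-change) of 0.33 ± 0.074 and an adjusted p of 0.172 by edgeR.

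One fit of all 12 libraries, which shares the spread between the cell types, called 6 members higher in EpiLCs, all kinesins (Kif1a, Kif1b, Kif4, Kif5b, Kif14 and Kif24, log2(fold-change) 0.23 to 0.33, adjusted p by edgeR 0.0259 to 0.0404). That fit called 3.31% of 12410 genes, and the 6 are out of 70 members. It was not run with the GC and length offsets. Over all alternatives the adjusted p of Kif4 in EpiLCs ran from 0.0259 to 1, and that of Kif1a from 0.0404 to 1. With the GC and length offsets, the log2(fold-change) in EpiLCs was 0.14 for Dync2h1, 0.19 for Kif4 and 0.30 for both Dynlt3 and Kif1a.

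**Figure D4:**
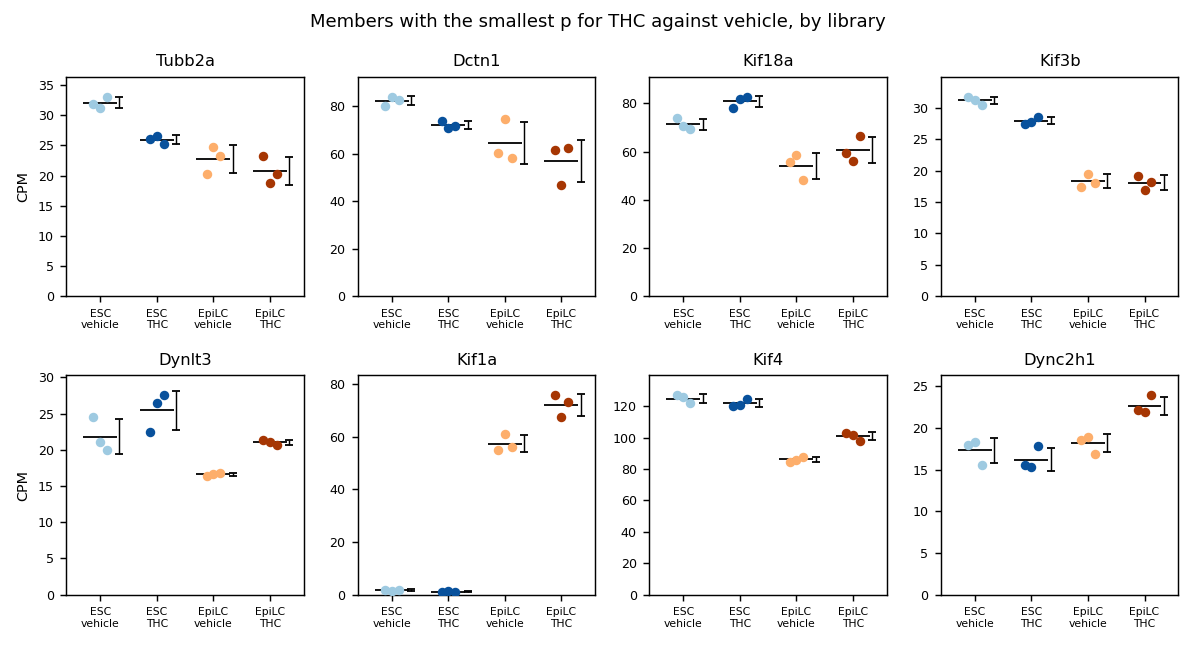
CPM in each of the 12 libraries for the 8 members with the smallest p for Δ9-THC against vehicle in either cell type. Points are libraries, horizontal lines group means of 3 and bars ± SD; all axes start at 0. Tubb2a, Dctn1, Kif18a and Kif3b separate the exposures in ESCs, and Dynlt3, Kif1a, Kif4 and Dync2h1 in EpiLCs.

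Families leaned apart in EpiLCs, although none of their members was called in edgeR's test of the 6 EpiLC libraries. Tubulins had a median log2(fold-change) of -0.14, with 13 of 15 below 0, and their levels summed to 5286, 5629 and 5378 CPM in the vehicle libraries and 4957, 4634 and 4809 CPM in the exposed ones, with no overlap. Kinesins had a median of 0.085, with 21 of 33 above 0 (0.050 without Δ9-THC replicate 1), and the 13 cargo kinesins a median of 0.17 with 9 above 0. The cargo kinesins summed to 654, 671 and 652 CPM with vehicle and 767, 745 and 759 CPM with Δ9-THC, again with no overlap. Mitotic kinesins overlapped between exposures in both their sum and their direction (median 0.029, 6 of 11 above 0, and -0.025 to 0.087 with a library left out, below 0 without replicate 1 of either group). Axonemal heavy chains had a median of 0.25, with 7 of 9 above 0, at mean levels of 1.17 to 13.7 CPM. That median was 0.13 and 0.16 without vehicle replicate 1 or 2, and 0.13 and 0.15 without Δ9-THC replicate 1 or 2. Dynactin had a median of -0.12, with 5 of 6 below 0, and -0.071 both without vehicle replicate 2 and with the GC and length offsets. The median of all members was -0.029 and that of all genes 0.003.

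The fold changes in EpiLCs varied with gene length and GC content. Over the 78 members, Spearman's rho of the EpiLC log2(fold-change) with exon length was 0.601, and over 13696 genes it was 0.338, with -0.299 for GC content. The points share the same 6 libraries. The 15 tubulins have a median exon length of 2088 bases, the 34 kinesins of 7066, the axonemal heavy chains of 14713 and all genes of 4187. With the GC and length offsets the median was -0.049 for tubulins, 0.044 for kinesins, 0.12 for cargo kinesins and 0.080 for axonemal heavy chains, and that of mitotic kinesins changed sign to -0.031. The part of GC content and length in the differences between families was not tested beyond these offsets, after which rho with exon length was still 0.258 over the members (0.0321 over all genes).

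**Figure D5:**
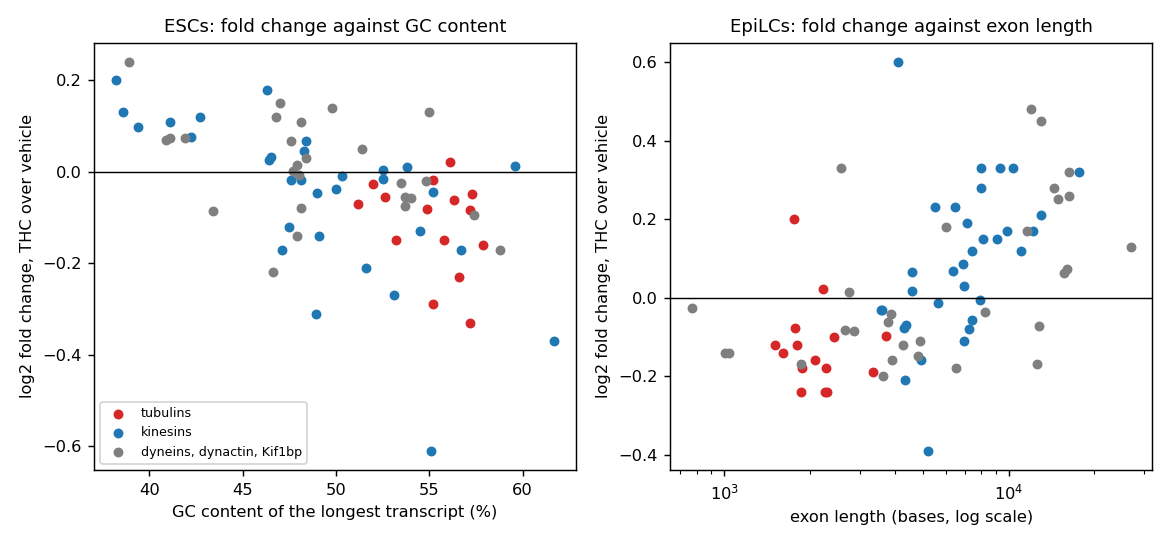
Log2(fold-change) of Δ9-THC over vehicle of each member against the GC content of its longest transcript in ESCs (left, 72 members) and against its exon length in EpiLCs (right, log scale, 78 members). Each point is a gene. Tubulins sit at high GC content and short length, mostly below 0, and the long genes mostly lie above 0 in EpiLCs.

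The difference of the exposure effect between the cell types was tested directly, as an interaction over the 70 members in both tables. After Benjamini-Hochberg adjustment, edgeR's quasi-likelihood test called 0 members (background 0.0242% higher and 0.00806% lower, 0.0322% in all, of 12410 genes). At an unadjusted p under 0.05, 9 members had a more positive fold change in EpiLCs (background 8.9%) and 1 a more negative (background 4.83%), 14.3% in all against 13.7%. Kif1a had the smallest p. Its log2(fold-change) was -0.61 ± 0.16 in ESCs, from about 51.7 counts per vehicle library, and 0.33 ± 0.074 in EpiLCs, a difference of 0.95 ± 0.18 with an adjusted p of 0.0623 by edgeR. Kif4 came next, with -0.017 ± 0.030 in ESCs and 0.23 ± 0.053 in EpiLCs, a difference of 0.26 ± 0.064 and an adjusted p of 0.116 by edgeR. DESeq2 called both, with adjusted p of 0.00742 and 0.0311 (background 0.749% higher, 1.07% in all), and over all alternatives the adjusted p ran up to 1 for both.

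Partners of the motors and tubulins, taken from a list of 81 genes of which 79 were measured in each cell type, gave few calls. In ESCs, 2 were higher and 2 lower with Δ9-THC by edgeR's quasi-likelihood test, and in EpiLCs 0 were called. The 4 calls are 5.06% of the list, below the 6.91% of all genes called in ESCs. All 4 were lost with the replicate block (adjusted p by edgeR 0.414 to 0.51), with the GC and length offsets (0.103 to 0.543), in the fit of 12 libraries (0.0824 to 0.566) and with any library left out (0.0721 to 0.144). Of the 4, DESeq2 called only Tbce (0.029) and gave Mapre3 no adjusted p. It also called Kifc1 and Mzt1, so that 3.8% of the 79 measured list genes was called. The 7.68% of all genes called by DESeq2 counts only genes with an adjusted p, so the shares have unlike bases. Tbce, a chaperone that assembles tubulin pairs, was higher in exposed ESCs, at 31.8 ± 1.22 CPM against 26.9 ± 1.06 with vehicle (adjusted p by edgeR 0.0368). Mapre1, an end-binding protein that tracks growing plus ends, was higher as well, at 195 ± 2.28 against 182 ± 2.09 CPM (0.0452). Its relative Mapre3 was lower, at 2.03 ± 0.0974 against 2.87 ± 0.104 CPM (0.0355), as was the dynein adaptor Bicdl1, at 9.06 ± 0.306 against 11.1 ± 0.323 CPM (0.0388). Between the cell types, 6 of the partners were more than 2-fold higher in vehicle EpiLCs (7.59%, background 11.1%) and 10 more than 2-fold lower (12.7%, background 10.5%). Vash2, an enzyme that removes the last tyrosine of alpha-tubulin, was 14-fold higher in EpiLCs, at 17.5 ± 0.309 against 1.25 ± 0.0484 CPM. Its relative Vash1 went the other way and was 2.73-fold higher in ESCs, at 4.07 ± 0.187 against 1.49 ± 0.431 CPM. Wdr34, an intermediate chain of dynein-2, was 2.5-fold higher, at 47.2 ± 1.61 against 18.8 ± 1.75 CPM. The microtubule-associated protein Map4 was 2.22-fold higher in ESCs, at 488 ± 8.59 against 219.5 ± 18.8 CPM.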

How the data were processed

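Poly(A) RNA was measured in 12 libraries. The authors aligned reads with STAR, retained unique alignments, counted exonic reads with HTSeq (union mode, strand ignored), dropped genes with few reads and applied ComBat-seq, whose batches are not given in the sources used here. The deposited counts are these adjusted values, 1 table per cell type, unscaled for depth. The genome is named both as mm10 and GRCm39. Another 6 libraries, of PGCLCs, were not analysed here.

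Exon lengths, GC content and shared 50-base stretches came from GENCODE M21 on GRCm38, where 19 identifiers per table had no entry. Genes with over 10 counts in total were tested per cell type with edgeR 4.0.16 (R 4.3.3, quasi-likelihood test, TMM, Benjamini-Hochberg, threshold 0.05), and SEs were derived from its F values. The interaction used 12 libraries in 4 groups. Scripts were tested on simulated data. Alternatives were RLE scaling, a filter of 10 counts per library, the replicate block, GC and length offsets (splines, 5 degrees of freedom) without and with the block, DESeq2 1.42.0, a joint fit of 12 libraries, and each library left out. Members were named as the 4 with the smallest p per cell type, the 2 with the smallest interaction p, the highest per kilobase of each family and the 5 at each end of the EpiLC to ESC ratio (mean of at least 50 counts), and others for their level or role after their values were seen. The members and lists were chosen with earlier results of these data known.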

Additional observations from a re-analysis of the deposited data

Results flagged for a closer look

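For 4 of the 70 members in both tables (5.71%, against 1.95% of all 12410 shared genes), every exposed library lay on one side of the vehicle libraries in ESCs and on the other side in EpiLCs. Kif1a had an interaction log2(fold-change), EpiLCs minus ESCs, of 0.95 ± 0.18 (adjusted p by edgeR 0.0623). For the ciliary kinesin Kif24 it was 0.38 ± 0.10 (adjusted p by edgeR 0.135), and for the cargo kinesin Kif21b 0.36 ± 0.099 (adjusted p by edgeR 0.141). The ESC side of Kif24 was small, at -0.037 ± 0.033 (unadjusted p by edgeR 0.336), against 0.33 ± 0.092 in EpiLCs. Kif21b had -0.17 ± 0.062 in ESCs and 0.17 ± 0.070 in EpiLCs. The dynactin subunit Dctn5 had -0.18 ± 0.070 (adjusted p by edgeR 0.285). Its EpiLC side was small, at -0.082 ± 0.054 (unadjusted p by edgeR 0.173), against 0.12 ± 0.038 in ESCs. By the test of the difference itself, none of the 4 passed the threshold in edgeR, and the cell types share no library.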

How the results depend on the processing

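The calls in ESCs, 1 member higher and 2 lower, became 0 and 0 with GC and length offsets, with these offsets and the replicate block together, in the fit of 12 libraries, with the replicate block alone, and with any library left out (0 to 0). They were as reported with RLE scaling, the count filter and DESeq2. Of all 12410 genes, the fit of 12 libraries called 0.25% in ESCs. In EpiLCs the fit of 12 libraries called 6 members higher in place of 0, the other alternatives 0, and leaving out a library 0 to 0 in each direction. DESeq2 called 2 members in the interaction in place of 0. The median log2(fold-change) of members in ESCs was -0.038 in the fit of 12 libraries and ranged from -0.039 to -0.024 with a library left out. In EpiLCs it ranged from -0.033 to 0.022 and changed sign without vehicle replicate 2 (0.022) and without THC replicate 2 (0.013). The tubulin median was -0.022 in ESCs and -0.049 in EpiLCs with the offsets, alone or with the block, and -0.11 to -0.052 and -0.18 to -0.10 with a library left out. The kinesin median kept its sign in every alternative but ranged from -0.031 to -0.003 in ESCs and 0.050 to 0.12 in EpiLCs with a library left out. With Δ9-THC libraries, 3 members in place of 5 were more than 2-fold lower in EpiLCs. Where the text gives no GC or length value, the cause was not tested.

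Same-numbered vehicle and Δ9-THC libraries were tied, but in mirror image (all correlations of deviations -0.987 to -0.977, those of other pairs 0.223 to 0.695). The numbers were therefore not used as pairs outside the replicate block. Leaving out either library of such a pair gave similar values, so the fits with a library left out are not all separate checks. Blocking on libraries that deviate in mirror image widens the SE (in ESCs 0.072 against 0.033 for Dctn1). Neither a call made without the block nor its loss with the block thus tells by itself whether the call holds. Without the block, mirrored libraries are treated as independent, so those p-values may be too small. By how much was not tested. Whether the batch adjustment contributed to the mirror image was not tested. The replicate block also ended the 4 partner calls in ESCs, and left EpiLCs and the interaction at 0 members. Depth limits the members under 100 counts per library.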

Other observations

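The pseudogene Dynlt1-ps1 had 1.35 ± 0.375 CPM in vehicle ESCs and 1.95 ± 0.481 CPM in exposed ESCs, and 1.5 ± 0.21 and 1.61 ± 0.217 CPM in EpiLCs (SD, n = 3). As 100% of its 50-base stretches occur in another gene, its level is uncertain, although only reads that aligned to a single place were kept.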
